A study of Rattus norvegicus with 10 samples.

Results

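The genes described here mark successive stages of granule neuron formation in the hippocampal dentate gyrus. They are Sox2, Eomes, Igfbpl1, Sox11, Dcx, Neurod1, Calb2, Prox1 and Calb1, a list of 9 genes fixed by name. It was chosen with earlier results of these data known. All 9 had a row among the 25399 gene rows of the nucleus matrices, and 8 had a row in the bulk table of 14166 genes. Eomes was not analysed here in bulk.

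The animals were young adult Sprague Dawley males. Traumatic brain injury (TBI) was given by lateral fluid percussion, a pressure pulse delivered to the intact dura through a craniectomy made 3 days earlier, and the dentate gyrus on the injured side was taken 3 weeks later. Sham rats had the craniectomy, anaesthesia and handling without the pulse, and the naïve rat had no surgery at all. Bulk polyA RNA sequencing was carried out on 3 sham and 3 TBI samples. Single-nucleus RNA sequencing was carried out on 4 rats processed individually, 2 TBI, 1 sham and 1 naïve, and the study grouped the last 2 as its control. With only 1 naïve and 1 sham animal in that control, a difference between those 2 animals has no replicate check.

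In the adult dentate gyrus, radial glia-like stem cells in the subgranular zone divide into intermediate progenitors, which give rise to neuroblasts, immature neurons and finally granule neurons that join the existing layer. SOX2 is a transcription factor that keeps stem cells undifferentiated and is also made by astrocytes and oligodendrocyte lineage cells. EOMES, also called TBR2, marks the intermediate progenitor. NEUROD1 is a proneural transcription factor of the late progenitor and neuroblast, SOX11 is a transcription factor of committed neuroblasts, and IGFBPL1 is a secreted protein made by young neurons. DCX, or doublecortin, is a microtubule-associated protein of migrating neuroblasts. CALB2, the calcium-binding protein calretinin, is made for a short time by immature granule neurons and lastingly by some interneurons. PROX1 is the homeobox factor that sets and holds granule identity, and CALB1, the calcium-binding protein calbindin, is a marker of mature granule neurons.

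The bulk libraries held 25121893 to 44649404 estimated transcript counts and the 4 nucleus libraries kept 11285 to 16931 nuclei each, with median UMI counts (unique molecular identifiers, one per captured RNA molecule) of 1647 to 2652 per nucleus. The sum of the 8 granule neuron markers found in the bulk table ran from 85.6 to 520 CPM (counts scaled to the same total in every library) in sham and from 108 to 353 CPM in TBI, so the defining marker level of the tissue differed more between samples of a group than between groups. None of those 8 markers separated the groups. Sham replicate 2 stood apart, with a summed level of the 8 oligodendrocyte markers of 16745 CPM against 4944 to 7715 CPM in the other 5 libraries. TBI replicate 3 stood apart in the 4 fibroblast markers, at 779 CPM against 29.7 to 144 CPM elsewhere. The 9 microglial markers in the table summed to 366.4 to 383.4 CPM in sham and 631 to 1139 CPM in TBI, with 8 of the 9 higher in every TBI library than in every sham library. The 7 astrocyte markers summed to 2515 to 3308 CPM in sham and 4901 to 8162 CPM in TBI, with 5 of the 7 separated in the same direction. In bulk samples, fewer cells of a type and less RNA per cell cannot be told apart, and the part these marker levels had in the results below was not tested.

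Nuclei were clustered without the 9 genes, so that their levels across classes were not set by the clustering itself. Of 24 clusters, 22 could be named from markers, and 2 clusters holding 4.55% of nuclei stayed unnamed. One cluster of 837 nuclei was named immature neuron-like, since 7 of the 10 immature neuron markers in the files were at least 2 times the median cluster. It was led by Mylk, Pappa2, Gpr139, Igfbpl1, Sema3c, Hunk and Dpysl5. Its defining markers Dpysl5, which encodes a collapsin response mediator of axon growth, and Sema3c, a secreted guidance cue, lay at 99.8 to 135 CPM and 411 to 632 CPM in the 4 animals, against 2.05 to 7.57 CPM and 60.6 to 107 CPM in granule neuron-like nuclei. The marker Gal had no UMI in the class, and the marker Nhlh1 overlapped its granule neuron-like level, at 0 to 9.07 CPM against 3.54 to 6.49 CPM. Of the granule markers, Rfx3 lay near its granule neuron-like level, at 1659 to 2069 CPM against 1912 to 2279 CPM. Dgkh lay lower, at 261 to 489 CPM against 770 to 924 CPM. Cell barcodes shared between any pair of the nucleus libraries numbered 45 to 60.

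The regulatory sequence before the start of 3 of these genes is shown here, since the UMI levels of Igfbpl1, Sox11 and Neurod1 peaked in the immature neuron-like class, as given further on. Each run is the 250 bases before the RefSeq transcription start in build GRCr8, read 5′ to 3′ on the gene's strand, at chr5:64887462-64887711 (minus strand) for Igfbpl1, chr6:49738795-49739044 (minus strand) for Sox11 and chr3:84770455-84770704 (minus strand) for Neurod1. Capitals mark E-boxes, the letters CANNTG that basic helix-loop-helix factors such as NEUROD1 can bind, which read the same class of letters on both strands.
Igfbpl1: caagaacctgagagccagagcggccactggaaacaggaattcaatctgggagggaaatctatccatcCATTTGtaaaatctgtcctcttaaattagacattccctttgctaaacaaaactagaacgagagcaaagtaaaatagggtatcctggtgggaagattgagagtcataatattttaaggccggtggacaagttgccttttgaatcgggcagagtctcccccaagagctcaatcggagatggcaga
Sox11: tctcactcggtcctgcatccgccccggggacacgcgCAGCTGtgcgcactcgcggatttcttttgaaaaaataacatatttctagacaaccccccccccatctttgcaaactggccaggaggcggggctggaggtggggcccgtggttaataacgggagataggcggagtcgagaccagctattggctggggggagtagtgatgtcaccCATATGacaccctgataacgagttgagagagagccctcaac
Neurod1: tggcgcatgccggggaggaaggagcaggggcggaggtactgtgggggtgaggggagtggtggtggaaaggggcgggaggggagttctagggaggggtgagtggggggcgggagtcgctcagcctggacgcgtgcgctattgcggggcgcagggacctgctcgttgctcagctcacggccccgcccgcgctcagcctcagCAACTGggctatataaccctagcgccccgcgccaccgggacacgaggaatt
The Igfbpl1 window held 1 E-box (CATTTG), the Sox11 window 2 (CAGCTG and CATATG) and the Neurod1 window 1 (CAACTG). Of all 33469 promoter windows of this length, 65.5% held at least 1 such match and 30.8% held at least 2. The letters ACAAAG, a core that SOX factors can bind, were in none of the 3 windows on either strand and in 16.3% of all windows. GC content was 44.4% for Igfbpl1, 56.8% for Sox11 and 69.2% for Neurod1, against a median of 51.2% over all windows.

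No member passed the test of TBI against sham in bulk. With edgeR's quasi-likelihood test, 0 of the 8 members passed an adjusted p of 0.05, and so did 0 of the 14166 genes (0%), although 1360 genes (9.6%) had an unadjusted p under 0.05. DESeq2 on the same counts called 349 genes (2.47%) and limma called 0, and neither called a member. None of the 8 members had all TBI libraries on one side of all sham libraries, whereas 11.7% of all genes lay wholly above and 3.06% wholly below. Fold changes below are TBI over sham on the log2 scale, with the standard error and the 95% interval from edgeR.

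**Figure D1:**
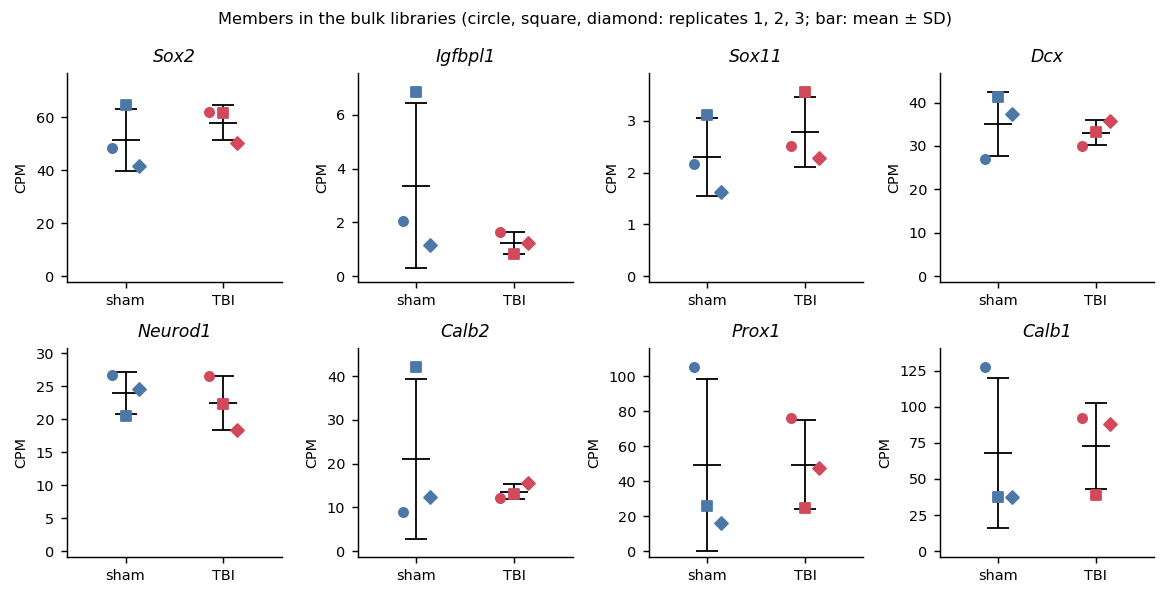
Level of each member in each bulk library, in CPM on a linear axis, with the mean and SD of 3 libraries per group. Sham replicate 2 (blue square) is the highest library for Igfbpl1 and Calb2, and sham replicate 1 (blue circle) for Prox1 and Calb1.

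Sox2, the stem cell and glial factor, was measured at 48.2, 64.5 and 41.8 CPM in sham replicates 1 to 3 and at 61.8, 61.6 and 50.2 CPM in TBI replicates 1 to 3. The groups overlapped, and the highest library of all was a sham. The log2 fold change was 0.13 (SE 0.18, 95% interval -0.29 to 0.55, adjusted p = 0.888).

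Dcx and Neurod1, both neuroblast genes, had the lowest ratios of the highest to the lowest library among the 8 members, at 1.53 and 1.45. Dcx lay at 26.9, 41.2 and 37.3 CPM in sham and at 30.1, 33.3 and 35.9 CPM in TBI, and Neurod1 at 26.7, 20.5 and 24.6 CPM in sham and at 26.6, 22.3 and 18.4 CPM in TBI. For both, the TBI values fell within or next to the sham range. The log2 fold changes were -0.13 (SE 0.17, 95% interval -0.53 to 0.28) for Dcx and -0.13 (SE 0.17, 95% interval -0.53 to 0.27) for Neurod1.

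Sox11, the committed neuroblast factor, was low, at 2.17, 3.12 and 1.62 CPM in sham and 2.51, 3.56 and 2.28 CPM in TBI. Its lowest library was a sham and its highest a TBI, with the others interleaved. The log2 fold change was 0.24 (SE 0.35, 95% interval -0.56 to 1.05, adjusted p = 0.896).

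Igfbpl1, the secreted protein of young neurons, had the largest estimated change of the 8 members, and that estimate turned on 1 library. It was measured at 2.06, 6.86 and 1.16 CPM in sham and at 1.66, 0.817 and 1.25 CPM in TBI. Sham replicate 2 was more than 3 times any other library, and the remaining sham values overlapped the TBI values. The log2 fold change was -1.47 (SE 0.68, 95% interval -3.06 to 0.11, adjusted p = 0.564), and without sham replicate 2 it was -0.40 (SE 0.47, adjusted p = 0.799). Over all alternatives its adjusted p ranged from 0.345 to 0.99995.

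Calb2, or calretinin, followed the same library. It was measured at 8.87, 42.2 and 12.5 CPM in sham and at 12.2, 13.1 and 15.6 CPM in TBI, so that only sham replicate 2 lay above 16 CPM. The log2 fold change was -0.68 (SE 0.54, 95% interval -1.94 to 0.59, adjusted p = 0.764), and its sign turned without that library, to 0.31 (SE 0.20, adjusted p = 0.652). In the same library the oligodendrocyte markers Mbp, myelin basic protein, and Mobp stood at 8741 and 1085 CPM against 2683 to 4088 CPM and 288 to 432 CPM in the other 5. The Cajal-Retzius neuron marker Ebf3 stood at 5.51 CPM there against 0.563 to 1.91 CPM, and Tp73 at 9.87 CPM against 2.31 to 6.63 CPM. Reln, of the same marker list, did not stand out there, at 70.2 CPM against 54.4 to 74.0 CPM. The 4 Cajal-Retzius markers with a bulk row summed to 86.2 CPM there against 61.0 to 78.7 CPM. The part of these other cell types in the Igfbpl1 and Calb2 levels was not tested.

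Prox1 and Calb1, the granule identity factor and the mature granule marker, varied widely between libraries of one group, with ratios of the highest to the lowest of all libraries of 6.60 and 3.39. Prox1 was measured at 106, 25.6 and 16.005 CPM in sham and at 76.0, 24.8 and 47.8 CPM in TBI, and Calb1 at 128, 37.9 and 37.7 CPM in sham and at 92.0, 38.7 and 88.1 CPM in TBI. Both were highest in sham replicate 1, then in TBI replicate 1 and TBI replicate 3. The granule marker C1ql2, a complement-like secreted synaptic protein, had the same 3 libraries on top, at 209 CPM in sham replicate 1, 128 CPM in TBI replicate 1 and 116 CPM in TBI replicate 3, against 14.9 to 28.9 CPM in the other 3. The log2 fold changes were -0.01 (SE 0.70, 95% interval -1.65 to 1.63) for Prox1 and 0.08 (SE 0.53, 95% interval -1.17 to 1.32) for Calb1. With the mean level of the granule markers of each library as a covariate, an alternative chosen after seeing the data, they were -0.02 (SE 0.20) and -0.01 (SE 0.13). Without sham replicate 1 they were 1.21 (SE 0.46, adjusted p = 0.359) and 0.90 (SE 0.35, adjusted p = 0.366).

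The study's metadata placed the surgeries of sham replicates 1 and 2 and TBI replicate 1 in spring and those of sham replicate 3 and TBI replicates 2 and 3 in autumn. Within spring, Prox1 in TBI replicate 1 (76.0 CPM) lay between the sham values of 106 and 25.6 CPM, and within autumn both TBI values (24.8 and 47.8 CPM) lay above the sham value of 16.005 CPM. Igfbpl1 in TBI lay below both sham values in spring, at 1.66 CPM against 2.06 and 6.86 CPM, and on both sides of the sham value in autumn. With the surgery period as a covariate, no member passed the threshold.

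The wider lineage was described through 6 lists, chosen with earlier results of these data known. No gene of any list passed the threshold in bulk with edgeR, and DESeq2 called 2, Gfap and Vim. The radial glia-like stem cell list had the highest median log2 fold change, 0.32 over 15 genes, against -0.003 over all 14166 genes. In 6 of its 15 genes, or 40.0%, the lowest TBI library exceeded the highest sham library, against 11.7% of all genes, and in 0 was it below. These 6 were Gfap and Vim, which encode intermediate filaments of glia, Fabp7, a fatty acid-binding protein of radial glia, Hopx, a homeodomain protein of quiescent stem cells, Id4, an inhibitor of neuronal differentiation, and Slc1a3, a glutamate transporter of astrocytes and stem cells.

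Gfap was measured at 1146, 1304 and 891 CPM in sham and at 2832, 5395 and 2583 CPM in TBI. Hopx was measured at 28.9, 18.5 and 15.8 CPM in sham and at 33.1, 40.7 and 36.1 CPM in TBI, a log2 fold change of 0.77 (SE 0.22, adjusted p = 0.302). Vim had the highest fold change of the list at 1.91 (SE 0.43, adjusted p = 0.208), with its highest value, 418 CPM, in TBI replicate 3. All of these are also made by mature astrocytes. Gfap and Slc1a3 also count among the astrocyte markers summed above, so those sums partly repeat the same genes. The part of astrocytes in these levels was not tested. Lpar1, a lysophosphatidic acid receptor of stem cells and oligodendrocytes, had the lowest fold change of the list at -0.67 (SE 0.49) and was highest in sham replicate 2, at 161 CPM against 42.8 to 67.5 CPM elsewhere.

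The proliferation list had a median log2 fold change of -0.03 over 11 genes. Mcm2 and Mcm3, subunits of the helicase that licenses DNA replication, were the 2 genes of this list above all sham libraries. They made up 18.2% of the list, against 11.7% of all genes. Mcm3 lay at 1.56, 1.94 and 0.615 CPM in sham and at 2.47, 3.66 and 3.24 CPM in TBI (log2 fold change 1.17, SE 0.45, adjusted p = 0.450), and Mcm2 had a log2 fold change of 0.27 (SE 0.18). Ccnd2, a cyclin of dividing progenitors, was lowest at -0.32 (SE 0.27) among its genes with a mean of at least 1 CPM.

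The intermediate progenitor and neuroblast list had a median of -0.14 over 14 genes. Of these, 7.14% lay wholly above sham and 14.3% wholly below, against 11.7% and 3.06% of all genes. Cd24, a surface protein of neuroblasts, was the highest of this list at 0.36 (SE 0.11, adjusted p = 0.326), at 76.8, 78.5 and 66.7 CPM in sham and 98.5, 105 and 88.8 CPM in TBI. Elavl4, a neuronal RNA-binding protein, and Tubb3, neuronal beta-tubulin, lay wholly below sham, at -0.27 (SE 0.10) and -0.27 (SE 0.13), and Elavl2, of the same RNA-binding family, was lowest at -0.48 (SE 0.35). The immature granule neuron list had a median of -0.23 over 15 genes, of which 13.3% lay wholly above sham and 13.3% wholly below. Within it, Marcks, an actin-linked kinase substrate, and Rnd2, a small GTPase of migrating neurons, lay wholly above sham at 0.51 (SE 0.20) and 0.29 (SE 0.10). Rasgrp1, a Ras exchange factor, and Klf9, a factor of maturing granule neurons, lay wholly below at -0.46 (SE 0.24) and -0.25 (SE 0.10), and Fxyd7, a sodium pump regulator, was lowest at -0.50 (SE 0.36).

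The mature granule neuron list had a median of -0.07 over 15 genes, none of which separated the groups. Its extremes were Smad3, a TGF-beta signal transducer, at 0.37 (SE 0.63) and Dsp, the desmosomal protein desmoplakin, at -0.54 (SE 0.73). Without sham replicate 1, 6 of the 15 lay wholly above sham, against 3154 of all 14166 genes. The niche signal list had a median of 0.09 over 21 genes. Of these, 14.3% lay wholly above sham and 4.76% wholly below, against 11.7% and 3.06% of all genes. Igf1, insulin-like growth factor, Jag1, a Notch ligand, and Bmp6, a bone morphogenetic protein, lay wholly above sham at 0.92 (SE 0.26, adjusted p = 0.281), 0.85 (SE 0.32) and 1.20 (SE 0.47), the last 2 with their highest values in TBI replicate 3. Vegfa, the vascular growth factor, lay wholly below at -0.26 (SE 0.12), and Dkk3, a Wnt pathway modulator of neurons, was lowest at -0.45 (SE 0.26).

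**Figure D2:**
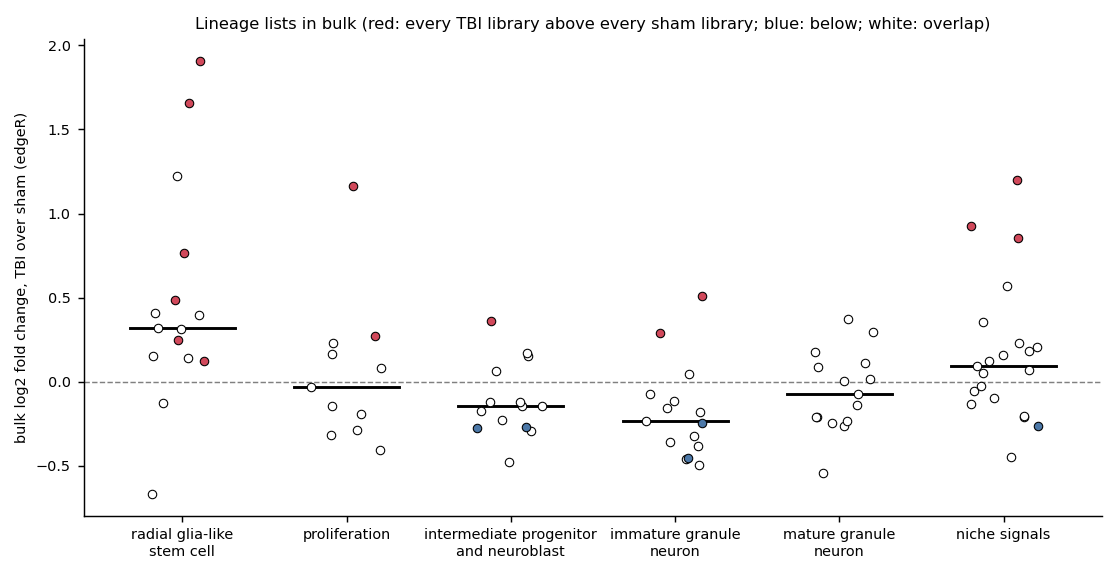
Bulk log2 fold change of every gene of the 6 lineage lists in the table, TBI over sham. Each point is a gene, horizontal bars are list medians and the dashed line is the median of all genes tested, and the radial glia-like stem cell list holds 6 red points, the most of the 6 lists.

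In the nuclei, the genes fell into distinct class patterns, given here as CPM of the UMIs summed over the nuclei of a class in each animal, as a mean ± SD over 4 animals and with no test between classes. Free RNA in the droplets gives nuclei some UMIs of genes they do not make, so for several genes the level in microglia-like nuclei is given as well. Igfbpl1 was the most restricted. It lay at 33.4 ± 35.5 CPM in immature neuron-like nuclei and at 0.598 ± 0.693 CPM in granule neuron-like nuclei, and its highest single value in any other named class was 3.54 CPM.

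Sox11 was next, at 11.6, 0, 4.53 and 22.1 CPM in immature neuron-like nuclei of TBI replicate 1, TBI replicate 2, the sham and the naïve animal. These values rest on 3, 0, 1 and 9 UMIs. The count of 0 among the 369990 UMIs of that class in TBI replicate 2 has an exact Poisson 95% upper bound of 9.97 CPM. All 5 stored entries of Sox11 there had the value 0, and counting each as 1 UMI would give 11.1 CPM. In granule neuron-like nuclei Sox11 was at most 0.841 CPM, and a single UMI among pericyte-like nuclei of the sham came to 29.8 CPM. Eomes, the intermediate progenitor factor, gave 4 UMIs in the 55124 nuclei, 1 in each animal, and only 1 of them, in the naïve animal, fell in the immature neuron-like class. Its level across classes was not measurable at this depth.

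Prox1 was highest in immature neuron-like nuclei at 649 ± 58.7 CPM and next in granule neuron-like nuclei at 372 ± 46.6 CPM. Every animal had that order. Microglia-like nuclei, which are not known to make PROX1, still held 257 ± 29.1 CPM, and other glutamatergic neuron-like nuclei 46.1 ± 30.4 CPM. The 2 microglia-like clusters differed, with 177 ± 69.6 CPM in the larger and 348 ± 40.6 CPM in the other, whose next-best marker class was granule neuron. Whether UMIs of Prox1 in glia came from free RNA, mixed nuclei or the glia themselves was not tested. Neurod1 also peaked in the immature class, at 40.4 ± 19.9 CPM, against 20.7 ± 5.03 CPM in granule neuron-like and 23.3 ± 5.98 CPM in microglia-like nuclei, so its level in granule neuron-like nuclei did not exceed that in microglia.

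Dcx was not restricted to young neurons. It was highest in GABAergic neuron-like nuclei at 108 ± 12.7 CPM, followed by immature neuron-like nuclei at 84.5 ± 12.9 CPM, other glutamatergic neuron-like nuclei at 75.9 ± 17.1 CPM and oligodendrocyte precursor-like nuclei at 60.2 ± 15.1 CPM. The GABAergic class exceeded the immature neuron-like class in 4 of 4 animals, the latter exceeded the other glutamatergic class in 3 of 4, and that class exceeded the oligodendrocyte precursor-like class in 4 of 4, although the mean ± SD ranges of neighbours overlapped. Granule neuron-like nuclei had 23.3 ± 10.4 CPM, below the 31.2 ± 7.27 CPM of microglia-like nuclei. Among the GABAergic clusters, the one led by Npas1, Reln and Adarb2 had 114 ± 18.0 CPM and the one with Sst among its top genes 121 ± 16.4 CPM.

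Calb2 was an interneuron gene in these nuclei, at 23.6 ± 5.43 CPM in the GABAergic class and at most 9.84 CPM in the immature neuron-like class, which held 7 of its UMIs in all. The cluster led by Npas1, Reln and Adarb2 carried most of it, at 45.4 ± 15.4 CPM. Calb1 was similar in granule neuron-like nuclei, at 54.6 ± 11.3 CPM, and immature neuron-like nuclei, at 53.2 ± 33.9 CPM, and microglia-like nuclei had 50.05 ± 19.1 CPM. Sox2 was a glial gene, at 179 ± 15.8 CPM in oligodendrocyte-like, 130 ± 31.98 CPM in astrocyte-like and 68.9 ± 17.7 CPM in oligodendrocyte precursor-like nuclei. Endothelial-like nuclei had 45.4 ± 8.42 CPM and microglia-like nuclei 17.999 ± 6.17 CPM. Granule neuron-like nuclei had 3.12 ± 3.65 CPM. Outside TBI replicate 1, most stored entries of Sox2 in that class had the value 0, as described below. GABAergic neuron-like nuclei also held Sox2, at 57.9 ± 5.14 CPM. The class of oligodendrocyte precursor-like nuclei was uneven, since its cluster led by Enpp6 and Bcas1, genes of newly forming oligodendrocytes, had 196 ± 58.8 CPM of Sox2.

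**Figure D3:**
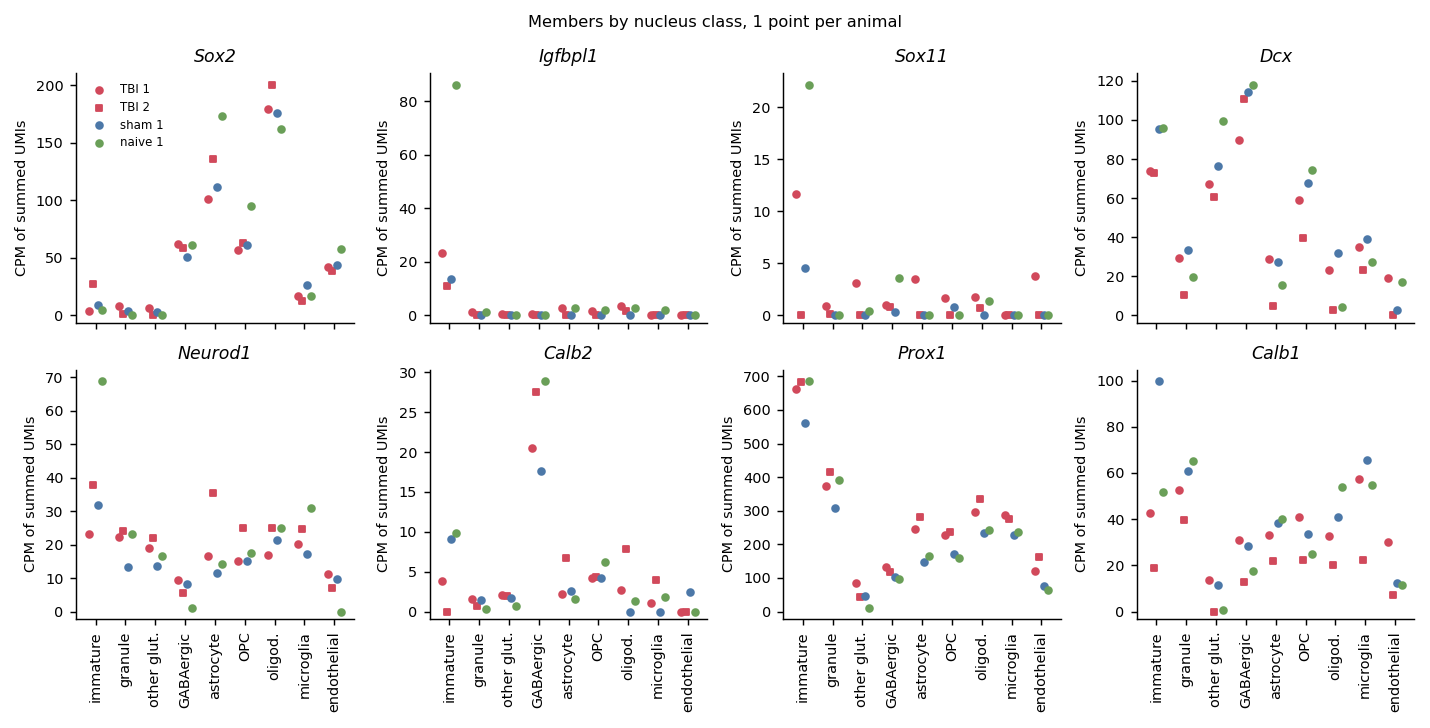
CPM of summed UMIs of 8 members in 9 nucleus classes, 1 point per animal, on linear axes (glut., glutamatergic; OPC, oligodendrocyte precursor; oligod., oligodendrocyte). Pericyte-like and unnamed nuclei are not drawn. Among the classes drawn, Igfbpl1 and Sox11 stand above 5 CPM only in the immature neuron-like class, Sox11 only in TBI replicate 1 and the naïve animal. Dcx is highest in GABAergic and Sox2 in oligodendrocyte-like nuclei.

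The share of nuclei in the immature neuron-like class did not separate the groups. Such nuclei made up 1.27% of those kept from TBI replicate 1 (159 of 12508), 2.05% from TBI replicate 2 (295 of 14400), 0.963% from the sham (163 of 16931) and 1.95% from the naïve animal (220 of 11285). TBI averaged 1.66% and control 1.46%, a difference of 0.20 percentage points that an exact two-sided permutation test put at p = 0.667. With 2 animals against 2, the smallest p this test can give is 0.333.

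Within that class, Igfbpl1 differed between the naïve animal and the other 3. TBI replicate 1 gave 6 UMIs of it, TBI replicate 2 gave 4, the sham 3 and the naïve animal 35, or 23.3, 10.8, 13.6 and 86.1 CPM. The exact Poisson 95% intervals, which cover counting error only, ran from 8.54 to 50.6 CPM, 2.95 to 27.7 CPM and 2.81 to 39.8 CPM in the first 3 and from 60.0 to 120 CPM in the naïve animal. The sham value lay between both TBI values, and the naïve interval touched none of the others. In nuclei, Igfbpl1 was detected in 27 of 220 in the naïve animal, at a median of 1868 UMIs per nucleus of the class, against 6 of 159, 4 of 295 and 3 of 163 in TBI replicate 1, TBI replicate 2 and the sham, at medians of 1469, 1216 and 1340 UMIs. Outside the class it was detected in 0.334% of nuclei in the naïve animal and in 0.356%, 0.0213% and 0% in the others. The last was 0 of 16768 nuclei, where 3 nuclei would make a share of 0.0179%. Entries stored with the value 0, described below, count as not detected here. In the sham Igfbpl1 had 32 of them, 1 inside the class. Such entries made up 12.3% to 91.4% of its stored entries by animal, so the shares outside the class are not directly comparable.

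Sox11 and Neurod1 had their highest level in the same animal. Neurod1 gave 6, 14, 7 and 28 UMIs in TBI replicate 1, TBI replicate 2, the sham and the naïve animal, or 23.3, 37.8, 31.7 and 68.9 CPM. The naïve interval for Neurod1, 45.8 to 99.6 CPM, overlapped all 3 others. That for Sox11, 10.1 to 42.0 CPM, overlapped those of TBI replicate 1 and the sham. Dcx was 73.7 and 73.0 CPM in TBI, 95.2 CPM in the sham and 96.0 CPM in the naïve animal, so that the sham lay with the naïve animal, and the Poisson intervals of all 4 overlapped. Prox1 was 663, 684, 562 and 686 CPM, with the sham lowest.

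**Figure D4:**
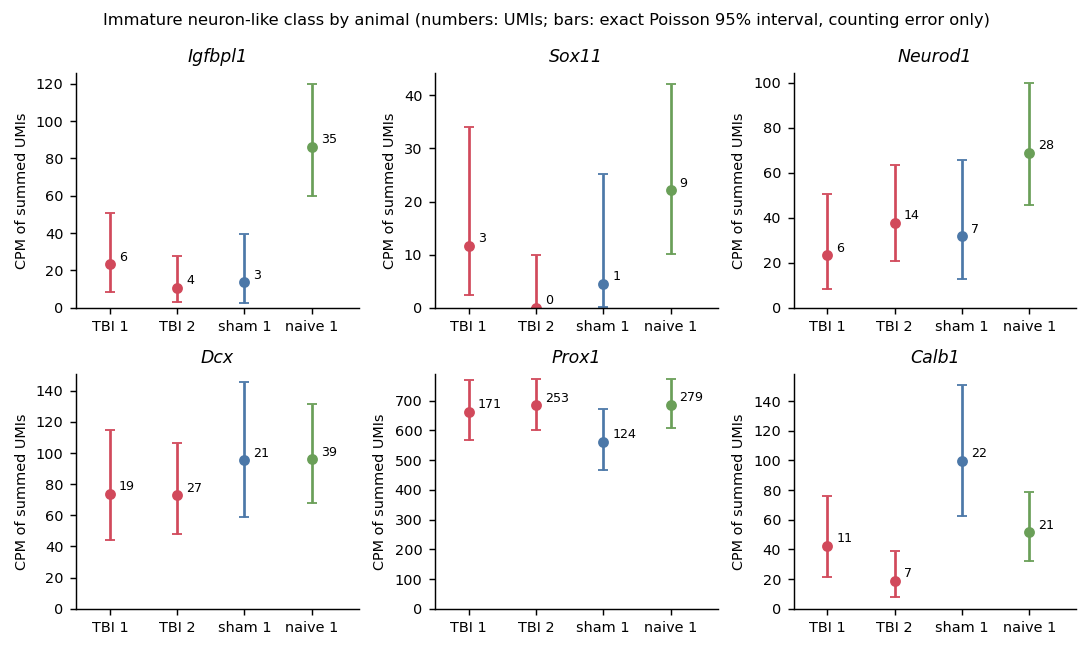
CPM of summed UMIs of 6 members in the immature neuron-like class of each animal, with the exact Poisson 95% interval of counting error and the UMI count beside each point. For Igfbpl1 the naïve animal (35 UMIs, 86.1 CPM) lies above the intervals of both TBI animals and the sham.

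The design's own test, TBI against control over animals within the class, called 0 of 5963 genes with edgeR (0%), with 286 (4.8%) at an unadjusted p under 0.05, and DESeq2 called 0. Only Dcx, Neurod1, Prox1 and Calb1 of the 9 members passed its filter on low counts. The log2 fold changes were -0.45 (SE 0.31, 95% interval -1.12 to 0.22) for Dcx, -0.83 (SE 0.52, 95% interval -1.95 to 0.29) for Neurod1 and 0.03 (SE 0.18, 95% interval -0.34 to 0.41) for Prox1. Calb1 had -1.36 (SE 0.52, 95% interval -2.47 to -0.25, adjusted p = 0.994), at 42.6 and 18.9 CPM in TBI against 99.8 and 51.7 CPM in control. Dcx and Calb1 had both TBI animals below both controls, as did 12.1% of the genes tested, and that of Dcx was lost with stored zeros, described below, counted as 1 UMI. Without the filter, Igfbpl1 had -1.86 (SE 0.57, adjusted p = 0.381). With the sham animal left out, so that the naïve animal was the whole control and was assumed to vary like the TBI animals, Igfbpl1 passed the filter and had -2.49 (SE 0.55, adjusted p = 0.0022, edgeR), in a fit that called 1.11% of 7477 genes. That fit compared the 2 TBI animals with 1 unoperated animal, and surgery, injury and the single animal cannot be told apart in it.

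The nuclei with Igfbpl1 were few, 40 in all, of which 27 came from the naïve animal. They are described against the 797 nuclei of the class without an Igfbpl1 UMI, with exact Poisson intervals that do not carry the spread between animals. Dcx was 174 CPM (95% interval 83.3 to 319) in the former and 80.2 CPM (64.9 to 97.9) in the latter, Neurod1 was 122 CPM (48.9 to 251) and 40.1 CPM (29.6 to 53.2), and Prox1 was 851 CPM (630 to 1125) and 650 CPM (605 to 697). For each of Dcx, Neurod1 and Prox1 the intervals overlapped. Those of the granule markers Plk5, a polo-like kinase, and C1ql2 overlapped as well. Plk5 was 17.4 CPM (0.440 to 96.8) and 49.3 CPM (37.5 to 63.6), and C1ql2 104 CPM (38.2 to 227) and 95.2 CPM (78.5 to 114). Mki67 and Top2a, genes of dividing cells, gave no UMI in the 40 nuclei, which hold 57574 UMIs in all with an exact Poisson upper bound of 64.1 CPM, against 14.2 and 8.35 CPM in the others, so a difference was not detectable at this depth.

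In granule neuron-like nuclei, edgeR called 0 of 14080 genes (0%), with 163 (1.16%) at an unadjusted p under 0.05, and DESeq2 called 0. Of the 7 members that passed the filter, Calb1 alone had groups that did not overlap. It was 52.4 and 39.6 CPM in TBI replicates 1 and 2, 60.9 CPM in the sham and 65.3 CPM in the naïve animal, with both TBI animals below both controls, as were 8.08% of genes. The log2 fold change was -0.53 (SE 0.17, 95% interval -0.96 to -0.09, adjusted p = 0.9998). Microglia-like nuclei, which are not known to make calbindin, had 57.4 and 22.3 CPM of Calb1 in TBI against 65.8 and 54.7 CPM in control, and oligodendrocyte-like nuclei 32.7 and 19.96 CPM against 41.1 and 54.0 CPM (log2 fold change -0.97, SE 0.37), where 8.17% of genes lay below in this way. The part of free RNA in the granule neuron-like difference was not tested. Prox1 was 372 and 416 CPM in TBI against 308 and 392 CPM in control, Neurod1 22.3 and 24.0 CPM against 13.2 and 23.2 CPM, and Dcx 29.4 and 10.4 CPM against 33.6 and 19.7 CPM. None of these 3 separated the groups, and their log2 fold changes were 0.12 (SE 0.20), 0.28 (SE 0.35) and -0.50 (SE 0.50).

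Across the other classes, no member passed the threshold with edgeR, which called 0 genes in each (0%). Genes at an unadjusted p under 0.05 made up 1.08% in other glutamatergic and 1.35% in GABAergic neuron-like, 3.12% in oligodendrocyte precursor-like and 2.28% in oligodendrocyte-like nuclei, and DESeq2 called a member in none of these 4. Dcx was lower in both TBI animals than in both controls in other glutamatergic neuron-like nuclei, at 67.0 and 60.5 CPM against 76.6 and 99.6 CPM (log2 fold change -0.52, SE 0.21, adjusted p = 0.9999), where 9.59% of genes lay below in this way. It was also lower in GABAergic neuron-like nuclei, at 89.7 and 111 CPM against 114 and 118 CPM (log2 fold change -0.29, SE 0.19), and in oligodendrocyte precursor-like nuclei, at 59.1 and 39.7 CPM against 67.6 and 74.5 CPM (log2 fold change -0.56, SE 0.27). The corresponding shares of all genes were 9.03% and 12.7%. Calb2 in GABAergic neuron-like nuclei was 20.5 and 27.5 CPM in TBI and 17.6 and 28.9 CPM in control, with no separation (log2 fold change -0.03, SE 0.38). Prox1 in that class was 134 and 119 CPM against 101 and 98.0 CPM (log2 fold change 0.27, SE 0.16), where 19.6% of genes had both TBI animals above, and Neurod1 in other glutamatergic neuron-like nuclei was 18.96 and 22.03 CPM against 13.6 and 16.5 CPM (log2 fold change 0.40, SE 0.35), where 17.2% did. Sox2 in astrocyte-like nuclei was 101 and 136 CPM in TBI and 111 and 173 CPM in control (log2 fold change -0.34, SE 0.24), and in oligodendrocyte-like nuclei 180 and 200 CPM against 175 and 162 CPM (log2 fold change 0.06, SE 0.20). Neurod1 in astrocyte-like nuclei was 16.6 and 35.3 CPM in TBI against 11.4 and 14.3 CPM in control, where 26.4% of genes had both TBI animals above.

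Prox1 had its largest estimated difference among the glial classes in astrocytes, in a call that depended on the tool. In astrocyte-like nuclei it was 244 and 282 CPM in TBI against 146 and 165 CPM in control, a log2 fold change of 0.69 (SE 0.16, 95% interval 0.33 to 1.06, adjusted p = 0.192), where 26.4% of genes lay above in both TBI animals. edgeR called 0 of 12520 genes in this class (0%), with 1602 (12.8%) at an unadjusted p under 0.05. DESeq2 called Prox1 (adjusted p = 0.022) along with 4.69% of the 5481 genes it adjusted, and edgeR without the filter called it (adjusted p = 0.0030) along with 3.5% of 18778. Over the 10 alternatives its adjusted p ranged from 0.0030 to 0.745, the highest without nuclei over 3 times the median UMI count. In oligodendrocyte precursor-like nuclei Prox1 was 228 and 237 CPM against 173 and 160 CPM (log2 fold change 0.44, SE 0.17, adjusted p = 0.997), where 20% of genes had both TBI animals above. In oligodendrocyte-like nuclei it was 296 and 334 CPM against 235 and 242 CPM (log2 fold change 0.29, SE 0.20), where 22.5% of genes had both TBI animals above. Both TBI animals were also above both controls in microglia-like nuclei, at 287 and 275 CPM against 227 and 237 CPM. So they were in endothelial-like nuclei, at 121 and 164 CPM against 75.9 and 63.2 CPM (log2 fold change 0.98, SE 0.37, adjusted p = 0.999), and in pericyte-like nuclei, at 245 and 339 CPM against 29.8 and 95.1 CPM on 31 UMIs in all. For microglia-like, endothelial-like and pericyte-like nuclei the share of all genes above in this way was not computed. The part of free RNA or mixed nuclei in these differences was not tested.

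The matrices hold entries stored with the value 0, which are counted as 0 UMIs above, and these bear on several members. Over the nuclei kept, TBI replicate 1 had 1.63% of its stored entries at 0, TBI replicate 2 had 27.5%, the sham 11.1% and the naïve animal 15.5%. For Sox11 the shares were 23.3%, 95.9%, 84.6% and 79.1%, and for Igfbpl1 12.3%, 89.4%, 91.4% and 67.0%. In each animal at most 1.74% of the genes with at least 50 stored entries had a share as high as either of these 2 genes. For Dcx the shares were 2.67%, 50.5%, 15.7% and 22.3%, and for Prox1 0.869%, 19.0%, 10.5% and 10.5%. Which processing step left these entries is not stated in the labels or methods read here.

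Inside the immature neuron-like class the stored zeros fell mostly in TBI replicate 2, where they made up 5 of 5 stored entries of Sox11, 50% of those of Igfbpl1, 46.2% of those of Calb1 and 43.2% of those of Dcx. Dcx had 19 of them there, and with each counted as 1 UMI its levels were 76.7 and 102 CPM in TBI against 96.5 and 91.1 CPM in control, so that the groups overlapped and the log2 fold change moved from -0.45 to -0.09 (SE 0.30). Calb1 became 42.2 and 28.8 CPM against 105 and 64.5 CPM, still without overlap. Igfbpl1 had 0, 4, 1 and 1 of them in TBI replicate 1, TBI replicate 2, the sham and the naïve animal, and with each counted as 1 UMI its levels were 23.0, 17.7, 16.8 and 80.0 CPM, again highest in the naïve animal. In granule neuron-like nuclei Igfbpl1 had 3, 27, 18 and 89 stored zeros against 21, 0, 0 and 24 UMIs. Sox2 had 25, 191, 133 and 207 stored zeros there against 136, 10, 67 and 2 UMIs. With each counted as 1 UMI, its levels became 9.57, 13.3, 9.37 and 8.93 CPM, in place of 8.17, 0.821, 3.39 and 0.0943 CPM. The low mean of Sox2 in that class and its spread between animals thus depended on how stored zeros were counted. Dcx had 303 against 127 UMIs in TBI replicate 2, and with stored zeros counted as 1 UMI its levels in the 4 animals became 30.4, 28.4, 38.5 and 25.8 CPM, in place of 29.4, 10.4, 33.6 and 19.7 CPM. Its log2 fold change there moved from -0.50 to -0.21 (SE 0.24), and that of Calb1 from -0.53 to -0.46 (SE 0.17).

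**Figure D5:**
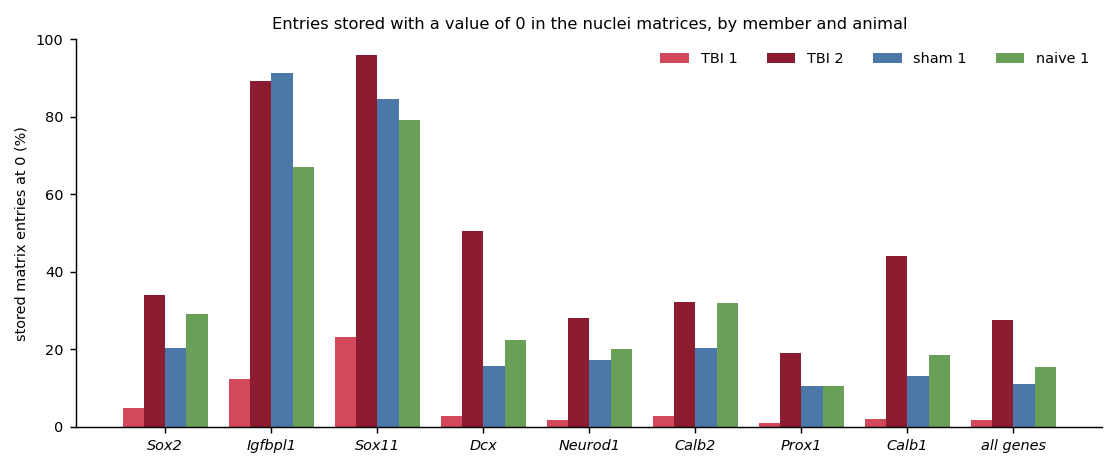
Share of stored matrix entries with the value 0, in percent, for 8 members and for all genes, in each of the 4 nucleus libraries. Sox11 and Igfbpl1 lie at 67.0% or more in TBI replicate 2, the sham and the naïve animal, and every member is lowest in TBI replicate 1.

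The genes most like each member over the 24 clusters, by Pearson's r of log2(CPM + 1) among 12976 genes with at least 200 UMIs, are given as a description, and points share library, depth and free RNA. Igfbpl1, with 141 UMIs in all, was nearest to Pappa2 (r = 0.84), a metalloproteinase that cuts insulin-like growth factor binding proteins, Gpr139 (0.75) and Slco5a1 (0.62). Sox11, with 86 UMIs, was nearest to Nox4 (0.78), Zfp770 (0.73) and Sema3a (0.69). Dcx was nearest to RGD1305110 (0.92), Scai (0.90) and RGD1560883 (0.89), and Neurod1 to Pcdh20 (0.83), Naf1 (0.81) and Orai2 (0.77). Calb2 was nearest to the interneuron genes Lgi2 (0.87), Dlx1 (0.86) and Htr3a (0.86). Prox1 was nearest to C1ql2 (0.84), Amotl1 (0.83) and Nfia (0.81), Calb1 to Cep41 (0.94), Zcchc12 (0.91) and RGD1565059 (0.91), and Sox2 to Appl2 (0.90), Rcan2 (0.89) and LOC108348175 (0.88). For Eomes, with 4 UMIs, no likeness is given.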

How the data were processed

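The members and the lineage lists were chosen with earlier results of these data known. For bulk RNA, the authors quantified reads with kallisto, removed low-abundance and low-variance features and deposited log2 CPM for 14166 genes, of which 13778 matched a RefSeq symbol. Gene counts were worked back from these values and the library totals, and rounded. The estimated counts per transcript that the authors deposited were quantified from the reads with kallisto. Their sums are the bulk library sizes given above. The totals used to work back gene counts were gene totals, at 97.8% to 98.5% of those sums. For nuclei, the authors deposited UMI counts from Cell Ranger on Rnor_6.0, exons and introns. Nuclei with at least 500 UMIs, 300 genes, a log10 ratio of genes to UMIs of 0.8, at most 5% mitochondrial and 2% ribosomal UMIs were kept (55124 of 55863), clustered in Seurat 5.3.0 without the members and named from fixed markers, with a naming margin set after seeing the data. No doublet caller was run, and 1142 nuclei exceeded 3 times their library's median UMI count.

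Groups were compared by quasi-likelihood F tests in edgeR 4.0.16, with TMM scaling and Benjamini-Hochberg adjustment over all genes. In bulk the tests used 3 sham and 3 TBI libraries. In nuclei they used UMI sums per animal and class, for each named class with at least 20 nuclei in every animal. Calls and alternatives are described for 7 of these classes. Every adjusted p in the text comes from edgeR unless DESeq2 1.42.0 or limma 3.58.1 is named. Intervals on UMI counts are exact Poisson and cover counting error only. Sources name no separate culture or litter beyond the animal, so p-values measure the spread between these samples. In simulated bulk counts the test recovered 51 of 100 genes changed 2-fold and 90 of 100 changed 4-fold. It also called 12 unchanged genes there. In the immature neuron-like class it recovered 25 and 78 of 100, and in the granule neuron-like class 18 and 48 of 100. In these 2 classes it also called 3 and 8 unchanged genes. Recovery in the measured counts was not tested.

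From each lineage list the text names the genes with the highest and lowest bulk log2 fold change among those with a mean of at least 1 CPM, and each gene whose groups did not overlap. For each member it names the 3 genes most like it. Other genes named were chosen after their values were seen. Alternatives were other scaling, filters, tools, covariates, UMI limits, stored zeros counted as 1 UMI, and leaving out each library.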

Additional observations from a re-analysis of the deposited data

Results flagged for a closer look

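In the nucleus matrix of TBI replicate 2, the share of stored entries with the value 0 exceeded that of both control animals for 7 members, data outside the UMI counts compared above. It was 34.1% for Sox2, 95.9% for Sox11, 50.5% for Dcx, 28.0% for Neurod1, 32.3% for Calb2, 19.0% for Prox1 and 44.2% for Calb1. The excess was not particular to the members: over all genes the share was 27.5% in that library against 11.1% in the sham and 15.5% in the naïve animal, with Prox1 below that level and Neurod1 near it. TBI replicate 1 had the lowest share of the 4 animals for each of them, so the excess was not common to both TBI animals.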

How the results depend on the processing

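Of 333 recomputed values of the 31 member fold changes, 301 kept their sign and side of the threshold. In bulk, DESeq2 called 349 genes, the granule marker covariate 2, and leaving out 1 library 0 to 1. The fold change of Prox1 became 0.35 with limma and 0.65 when surgery period entered the model, and that of Calb1 -0.0073 with the granule marker covariate. Leaving out 1 library gave -0.0068 to 0.33 for Sox2, -0.0017 to 0.53 for Sox11, -0.29 to 0.0030 for Dcx, -0.27 to 0.0038 for Neurod1, -1.05 to 0.31 for Calb2, -0.47 to 1.21 for Prox1 and -0.21 to 0.90 for Calb1. The cause was not tested.

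Bulk replicate numbers are shared between groups, but same-numbered libraries correlated at 0.36, 0.20 and -0.04, so they were not taken as pairs. With the replicate block 61 genes were called, no member among them, and Prox1 became 0.29. For the nuclei, no paired analysis was possible because the groups share fewer than 2 replicate numbers.

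In nuclei without the filter on low counts, edgeR called 8 genes in immature neuron-like, 44 in other glutamatergic, 40 in GABAergic, 657 in astrocyte-like, 26 in oligodendrocyte precursor-like and 17 in oligodendrocyte-like nuclei, and DESeq2 called 257 in astrocyte-like and 1 in oligodendrocyte-like nuclei. Over the 7 classes each called 1 member, Prox1 in astrocyte-like nuclei. Leaving out 1 animal, where a lone control was assumed to vary like the others, called 1 to 83 genes in immature neuron-like, 0 to 21 in granule neuron-like, 0 to 170 in other glutamatergic, 0 to 56 in GABAergic, 0 to 13 in astrocyte-like, 0 to 52 in oligodendrocyte precursor-like and 0 to 22 in oligodendrocyte-like nuclei, and 0 to 1 members. The immature share difference then ran from -0.29 to 0.70 percentage points, turning without the sham animal (-0.29) and without TBI replicate 2 (-0.18). Member fold changes that turned under it were Prox1 (-0.10 to 0.20) in immature neuron-like, Dcx (-1.35 to 0.011), Neurod1 (-0.095 to 0.78) and Prox1 (-0.078 to 0.33) in granule neuron-like, Calb2 (-0.35 to 0.41) and Calb1 (-0.87 to 0.32) in GABAergic, and Sox2 in astrocyte-like (-0.62 to 0.024) and oligodendrocyte-like (-0.038 to 0.15) nuclei. Calb1 in GABAergic nuclei became 0.012 with stored zeros as 1 UMI, and Sox2 in oligodendrocyte-like nuclei -0.33 with at least 1000 UMIs per nucleus. With 2 animals a group and few UMIs, Eomes, Sox11 and Igfbpl1 are limited by depth.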
